A study of Mus musculus with 6 samples.

Results

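The genes described here are a group named for the malate-aspartate and glycerol phosphate NADH shuttles, taken by symbol from the deposited table as Mdh1, Mdh2, Got1, Got2, Gpd1, Gpd1l, Gpd2, Me1 and Me2. Me1 and Me2 encode malic enzymes, which use malate but are not steps of either shuttle, and they are counted among the shuttle genes below. All 9 were found, among 49315 genes in the table. Their RNA was measured in bone marrow macrophages (BMMs) and in osteoclasts, the multinucleated cells that resorb bone. Added over the 4 malate-aspartate enzymes, RNA in osteoclasts was 3.43 times that in BMMs, a sum made up mostly of Mdh1 and Mdh2. By gene, the ratio of means was 5.20 for Mdh2, 3.09 for Mdh1, 2.19 for Got1 and 1.81 for Got2. The cytosolic glycerol phosphate dehydrogenases Gpd1 and Gpd1l did not pass the test, and the mitochondrial Gpd2 was higher. The malic enzymes went opposite ways, with Me1 lower and Me2 higher.

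NADH made by glycolysis in the cytosol cannot cross the inner mitochondrial membrane, so cells move its electrons by shuttles. In the malate-aspartate shuttle, cytosolic malate dehydrogenase passes the electrons to malate, which is carried into the matrix and oxidized again by mitochondrial malate dehydrogenase, while a pair of aspartate aminotransferases and their carriers return the carbon as aspartate. In the glycerol phosphate shuttle, cytosolic glycerol-3-phosphate dehydrogenase makes glycerol-3-phosphate, and a flavoprotein on the outer face of the inner membrane passes its electrons to ubiquinone. Malic enzymes turn malate into pyruvate and make NADPH or NADH. Osteoclasts are known for abundant mitochondria and for the energy they spend on acid secretion.

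The series holds 6 RNA-Seq libraries of cells from wild-type mice. BMMs at day 0 (3 libraries) had no treatment and were grown in medium with M-CSF, supplied as culture supernatant of CMG14-12 cells. Osteoclasts (3 libraries) were differentiated from BMMs over 4 days with 75 ng/mL RANKL and less of that supernatant. The design has no day 4 culture lacking RANKL, so RANKL, the M-CSF supply and the time in culture cannot be told apart. Age, sex and number of the mice are not given in the sources used, and the labels name the libraries biological replicates without naming animals. The p-values therefore measure the spread between these libraries, which may be technical.

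Values are in TPM, a transcript abundance scaled by gene length and to a total of 1000000 in each library. Depth cannot be read from TPM, so the precision set by read number is unknown. Genes whose mean reached 1 TPM were tested on log2(TPM + 1) with limma, and a gene was called at an adjusted p under 0.05. Of 12325 genes tested, 68.9% were called, 45.3% as higher and 23.5% as lower in osteoclasts, so a call by itself is common. In 73.5% of them the groups did not overlap. Over all genes tested, the log2 fold change had a median of 0.19. Median-ratio scaling, which moved that median to 0.00, gave 4149 genes higher and 4131 lower in place of 5585 and 2901. The labels were checked against markers, and 10 of 10 osteoclast markers were higher, of which Acp5 was the most abundant, and 8 of 10 macrophage markers were lower. Cd68, the most abundant macrophage marker, was higher, but did not pass after quantile normalization or median-ratio scaling. Neutrophil markers, of which S100a9 was the most abundant, summed to 2968 to 3230 TPM in BMM libraries and to 17.5 to 31.0 TPM in osteoclast libraries, and 8 of 8 tested were lower. Stromal and osteoblast markers, of which Col1a1 was the most abundant, summed to 6.87 to 7.38 TPM and to 109 to 135 TPM, and 3 of 4 tested were higher. Some markers in these lists, such as Pdgfrb, Calcr and Elane (chosen after their values were seen), averaged under 1 TPM in one group and passed the filter only through the group where they were high, so these counts are descriptions. The part of these cells in the results below was not tested. Adipocytes, red cells and skeletal muscle are rich in some of the shuttle enzymes. Of their markers, Lep, Cfd, Hba-a2, Hbb-bs, Hbb-bt, Slc4a1, Myh4 and Myh1 were at 0 in every library, and the 7 erythroid markers together reached at most 0.358 TPM. The 6 muscle markers summed to 1.94 to 4.05 TPM in BMMs and 4.70 to 5.33 TPM in osteoclasts, with Mylpf, whose groups overlapped, as the most abundant. Ckm was listed at 0.0856 to 0.313 and 0.974 to 1.497 TPM, and Acta1 at 0.137 to 0.284 and 0.763 to 2.03 TPM, without overlap and under the filter (both chosen after their values were seen). The adipocyte list summed to 110.4 to 119 TPM in BMMs and 133 to 158 TPM in osteoclasts, mostly from the lipase Pnpla2, which macrophages also express. In bulk RNA, more cells of a type and more RNA per cell cannot be told apart.

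Of the 9 shuttle genes, 9 passed the filter on low values, 6 were higher in osteoclasts, 1 was lower and 2 did not pass the test. The groups did not overlap for the 7 called genes and overlapped for Gpd1 and Gpd1l. Of all genes tested, 68.9% were called, 45.3% as higher, and in 73.5% the groups did not overlap, so these counts alone do not set the shuttle genes apart. The median log2 fold change of the 9 was 0.85. Together they took 528 ± 0.623 TPM across BMMs and 1611 ± 29.0 TPM across osteoclasts (SD, n = 3 per group).

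**Figure D1:**
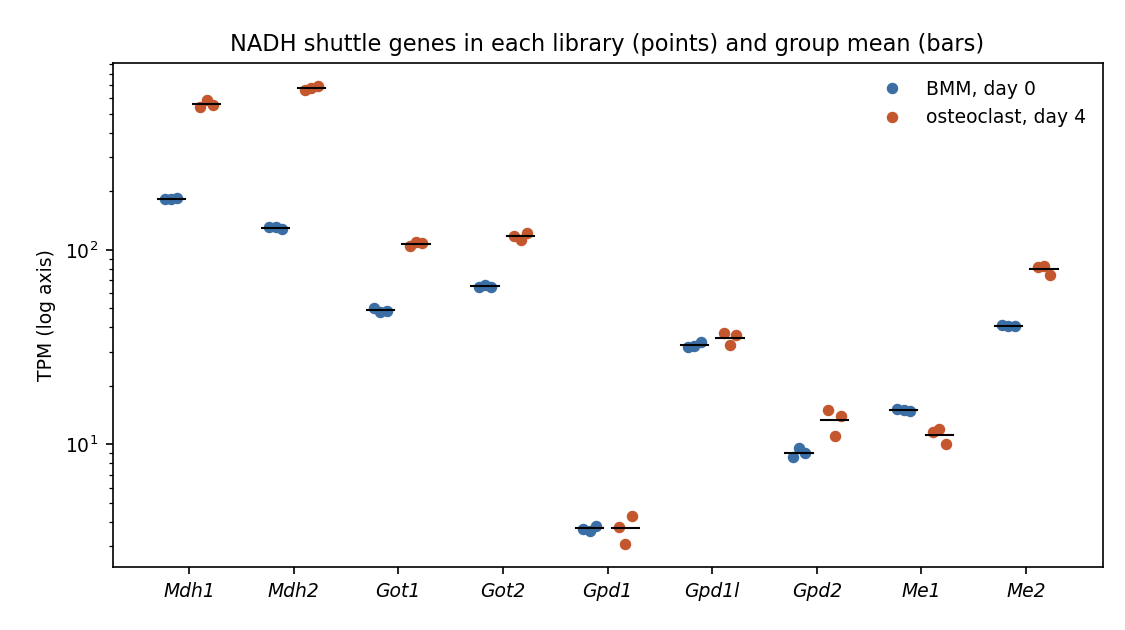
TPM of the 9 shuttle genes on a log axis, with a point for each library and a bar for each group mean (BMM at day 0 in blue, osteoclasts at day 4 in orange, 3 libraries each). Mdh1 and Mdh2 moved from 183 and 130.3 TPM to 565 and 677 TPM, which reversed their order, while the points of Gpd1 and of Gpd1l overlap between the groups.

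The malate dehydrogenases had the highest RNA levels of the shuttle genes and rose the most. Mdh2 (ENSMUSG00000019179, chromosome 5 of GRCm38 from 135778480 to 135790398) encodes the mitochondrial malate dehydrogenase, which is also an enzyme of the TCA cycle. Its level was 131, 131 and 129 TPM in BMM replicates 1, 2 and 3, and 660.3, 676 and 696 TPM in osteoclast replicates 1, 2 and 3. Every osteoclast library was above every BMM library, and the log2 fold change was 2.37 (standard error, SE, 0.05, adjusted p = 6.1e-09 from limma). Of the genes tested, 97.9% had a smaller log2 fold change. Mdh1 (ENSMUSG00000020321, chromosome 11 from 21556787 to 21572367) encodes the cytosolic malate dehydrogenase, which uses cytosolic NADH to make malate. It measured 183, 182 and 184 TPM in BMMs and 545, 591 and 558 TPM in osteoclasts. These groups lay far apart relative to their spread, and the log2 fold change was 1.62 (SE 0.05, adjusted p = 6.3e-08 from limma). Wdpcp, a gene on the opposite strand that overlaps Mdh1, was listed at 1.02 to 2.02 TPM.

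The promoters of both malate dehydrogenases, whose RNA rose together, and of Me1, whose RNA fell, are shown to let them be compared. They are RefSeq sequences on GRCm38.p6, from 250 bases before to 50 bases after an annotated start. The windows are chr11:21571885-21572184 on the minus strand for Mdh1, chr5:135778399-135778698 on the plus strand for Mdh2 and chr9:86695865-86696164 on the minus strand for Me1. Capitals mark matches to the motifs described after the sequences.
Mdh1: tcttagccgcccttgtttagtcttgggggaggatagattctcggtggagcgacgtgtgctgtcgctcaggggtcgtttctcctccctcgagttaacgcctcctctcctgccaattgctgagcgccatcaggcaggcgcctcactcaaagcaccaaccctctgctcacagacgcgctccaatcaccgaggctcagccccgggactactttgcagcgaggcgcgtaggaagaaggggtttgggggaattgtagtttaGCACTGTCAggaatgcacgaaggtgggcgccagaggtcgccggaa
Mdh2: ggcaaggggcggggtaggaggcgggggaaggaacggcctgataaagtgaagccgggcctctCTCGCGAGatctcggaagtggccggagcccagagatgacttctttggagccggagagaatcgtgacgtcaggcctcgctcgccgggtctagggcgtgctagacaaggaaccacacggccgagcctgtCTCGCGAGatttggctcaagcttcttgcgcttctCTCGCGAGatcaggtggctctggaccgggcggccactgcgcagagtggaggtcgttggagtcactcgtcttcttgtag
Me1: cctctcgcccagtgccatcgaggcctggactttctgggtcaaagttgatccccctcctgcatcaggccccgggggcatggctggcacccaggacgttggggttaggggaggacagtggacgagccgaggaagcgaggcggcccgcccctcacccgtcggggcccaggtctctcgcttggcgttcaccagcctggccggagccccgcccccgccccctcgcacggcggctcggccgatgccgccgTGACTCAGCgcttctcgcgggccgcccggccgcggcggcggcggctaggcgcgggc

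The motifs searched on both strands were the ERR element TNAAGGTCA, the NRF1 site CGCNTGCGC, the E-box CACGTG, the AP-1 site TGANTCA and the antioxidant element TGACNNNGC. Promoters were at hand for 7 of the 9 genes, without Gpd1 and Me2. Gpd2 and Me1 each had a second promoter, and the second of Me1 (chr9:86687228-86687527, not shown) held no match. A gene was counted if any of its promoters matched, while the shares given beside are of single promoters. The ERR element and the NRF1 site matched in 0 of the 7, against 1.28% and 6.25% of 32851 RefSeq promoters of the same length. The E-box matched in 1, Gpd1l, against 7.15% of promoters, and the AP-1 site in 1, Me1, against 7.81%. The antioxidant element matched in 3, Mdh1, Gpd1l and Me1, against 12.4%. In Me1 the AP-1 and antioxidant matches overlap, both beginning 6 bases before the start, as the capitals show. In Mdh1 the antioxidant match lies on the opposite strand from base 6 after the start. The capitals in Mdh2 are 3 copies of CTCGCGAG, a palindrome searched only after this promoter had been read, which begin at positions -189, -62 and -28 from the start. At least 1 copy stands in 0.919% of promoters, and 3 or more stand in 2 of the 32851, a count that includes the Mdh2 promoter itself. The promoter of the carrier Slc25a11 holds 1 copy, at -131. No copy was found in the other promoters read for members, among them Mdh1, or for carriers. A match describes letters in the window and was not tested for binding.

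The aspartate aminotransferases were also higher in osteoclasts, by less than the malate dehydrogenases. Got1 (ENSMUSG00000025190, chromosome 19 from 43499752 to 43524605) encodes the cytosolic aminotransferase, which makes oxaloacetate from aspartate. It measured 50.6, 48.2 and 48.5 TPM in BMMs and 104, 109 and 109 TPM in osteoclasts. The osteoclast libraries were about alike and each above the BMM libraries, with a log2 fold change of 1.12 (SE 0.05, adjusted p = 5.0e-07 from limma). Got2 (ENSMUSG00000031672, chromosome 8 from 95864134 to 95888547) encodes the mitochondrial aminotransferase, which makes aspartate in the matrix. It measured 64.1, 66.3 and 64.4 TPM in BMMs and 118, 113 and 122 TPM in osteoclasts. Here too no values overlapped, and the log2 fold change was 0.85 (SE 0.05, adjusted p = 2.7e-06 from limma). Of the windows of 150 bases, the read length, along a Got2 transcript, 13.02% also occur in transcripts of other annotated genes. Those genes include the pseudogene Got2-ps1 and were listed at no more than 0.239 TPM. How multiply matching reads were handled is not given, so the share of Got2 reads placed elsewhere or dropped is unknown.

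The carriers that complete the malate-aspartate shuttle were higher in osteoclasts, 3 of 3 listed, beside 45.3% of all genes tested. Slc25a13 encodes citrin, an aspartate-glutamate carrier, and measured 19.8, 19.3 and 19.1 TPM in BMMs and 42.1, 44.7 and 36.2 TPM in osteoclasts (log2 fold change 1.04, SE 0.08, adjusted p = 1.2e-05 from limma). Slc25a12 encodes aralar, the other aspartate-glutamate carrier, and averaged 19.5 ± 0.177 TPM across BMMs and 23.2 ± 0.461 TPM across osteoclasts (SD, n = 3 per group). Its log2 fold change of 0.24 passed the test (adjusted p = 0.0064 from limma) but fell to 0.04 without passing after median-ratio scaling and after quantile normalization, and to 0.08 after rescaling without the most abundant genes. In BMMs these carriers stood at about the same level, and in osteoclasts every library had more Slc25a13 than Slc25a12. Slc25a11, the oxoglutarate carrier that exchanges malate, was the most abundant of the 3, at 158 ± 2.69 TPM and 275 ± 10.1 TPM (SD, n = 3 per group), with a log2 fold change of 0.80.

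**Figure D2:**
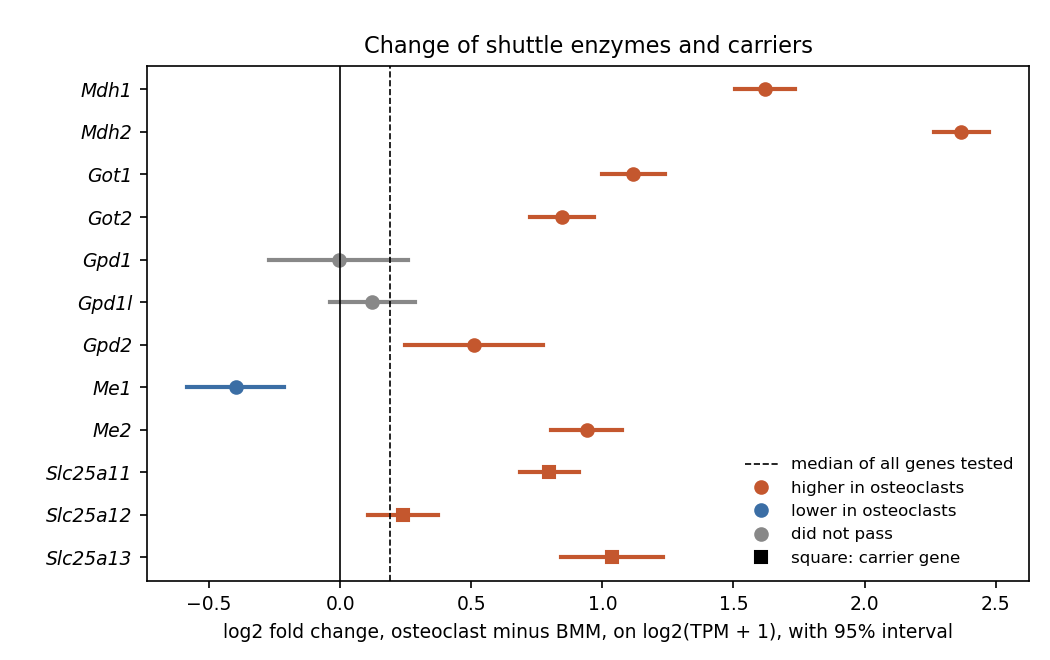
Log2 fold change of osteoclasts minus BMMs on log2(TPM + 1) for the 9 shuttle enzymes (circles) and 3 carriers (squares), with 95% intervals from limma, coloured by call; the solid line marks 0 and the dashed line the median of all genes tested (0.19). Mdh2 and Mdh1 stand farthest to the right, Me1 is the one enzyme to the left of 0 with an interval clear of it, and the intervals of Gpd1 and Gpd1l include 0.

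The cytosolic enzymes of the glycerol phosphate shuttle did not pass the test. Gpd1l (ENSMUSG00000050627, chromosome 9 from 114899341 to 114933987) encodes a glycerol-3-phosphate dehydrogenase like that of Gpd1 and was the main transcript of the pair. It measured 31.5, 32.05 and 33.5 TPM in BMMs and 37.4, 32.4 and 36.4 TPM in osteoclasts. Replicate 2 of the osteoclasts lay among the BMM values, and the log2 fold change was 0.12 (95% interval -0.04 to 0.29, adjusted p = 0.16 from limma). Without that library Gpd1l passed the test, at 0.18 (adjusted p = 0.016 from limma), and after median-ratio scaling it was -0.08 (adjusted p = 0.29 from limma). Gpd1 (ENSMUSG00000023019, chromosome 15 from 99717515 to 99725005) encodes the classical cytosolic enzyme and had the lowest level of the 9 genes. It measured 3.67, 3.60 and 3.83 TPM in BMMs and 3.77, 3.08 and 4.28 TPM in osteoclasts. The osteoclast values spanned the BMM values on both sides, with a log2 fold change of -0.01 (95% interval -0.27 to 0.26, adjusted p = 0.97 from limma). The interval leaves room for a change of up to about that size in either direction. Gm16537, an antisense gene that overlaps Gpd1, was listed at 0.264 to 1.02 TPM, and whether counting used strand is not given in the sources used here, so part of the low Gpd1 signal is uncertain.

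The mitochondrial enzyme of the glycerol phosphate shuttle was higher. Gpd2 (ENSMUSG00000026827, chromosome 2 from 57237635 to 57370719) encodes the flavoprotein that passes electrons from glycerol-3-phosphate to ubiquinone. It measured 8.57, 9.55 and 8.99 TPM in BMMs and 15.03, 11.1 and 14.1 TPM in osteoclasts. Each osteoclast library was above each BMM library, though replicate 2 by little, and the log2 fold change was 0.51 (SE 0.11, adjusted p = 0.0042 from limma). Osteoclast replicate 2 was the lowest osteoclast library for Gpd1, Gpd1l and Gpd2, and Gpd2 was at 0.63 without it. Added over the 3 genes, the shuttle averaged 45.1 ± 1.29 TPM across BMMs and 52.5 ± 5.19 TPM across osteoclasts (SD, n = 3 per group). The 4 malate-aspartate enzymes added up to 427 ± 1.61 TPM and 1468 ± 34.3 TPM (SD, n = 3 per group).

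The malic enzymes changed in opposite directions. Me1 (ENSMUSG00000032418, chromosome 9 from 86581371 to 86695953) encodes the cytosolic malic enzyme, which makes NADPH and is best known from lipid synthesis. It measured 15.2, 15.02 and 14.9 TPM in BMMs and 11.6, 12.0 and 10.1 TPM in osteoclasts. No osteoclast library reached a BMM library, and the log2 fold change was -0.40 (SE 0.08, adjusted p = 0.0024 from limma). Neutrophil markers, given with the marker lists, fell between the same libraries, and their part in the fall of Me1 was not tested. Of the read-length windows along a Me1 transcript, 9.51% also occur in transcripts of 3 other annotated genes. Me2 encodes a mitochondrial malic enzyme that uses NAD and measured 41.0, 40.7 and 40.8 TPM in BMMs and 81.4, 82.3 and 74.4 TPM in osteoclasts. The BMM libraries were nearly alike and below each osteoclast library, at a log2 fold change of 0.94 (SE 0.06, adjusted p = 2.5e-06 from limma). This gene is ENSMUSG00000024556, and it lies on chromosome 18 from 73769903 to 73815449.

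Mitochondrial and cytosolic partners were then compared within each library, where the scaling between libraries drops out. The ratio of Mdh2 to Mdh1 was 0.717, 0.721 and 0.699 in BMM replicates and 1.21, 1.14 and 1.25 in osteoclast replicates. The cytosolic transcript was thus the more abundant in each BMM library and the mitochondrial one in each osteoclast library. The ratio of Me2 to Me1 was 2.69, 2.71 and 2.74 in BMMs and 7.04, 6.87 and 7.39 in osteoclasts, the widest difference of the 4 ratios. The ratio of Gpd2 to the sum of Gpd1 and Gpd1l was 0.243, 0.268 and 0.241 in BMMs and 0.365, 0.312 and 0.346 in osteoclasts. It was higher in each osteoclast library, and the cytosolic pair was the larger in every library. The ratio of Got2 to Got1 went the other way, from 1.27, 1.38 and 1.33 in BMMs to 1.13, 1.03 and 1.12 in osteoclasts. On the log2 scale of TPM + 1 these differences were 0.75 for malate dehydrogenase, 1.34 for malic enzyme, 0.40 for glycerol phosphate dehydrogenase and -0.27 for the aminotransferase. The groups did not overlap for any of the 4 ratios, and each had p = 0.1 in a two-sided exact permutation test (0.1 after Benjamini-Hochberg adjustment over the 4), which is the smallest p that 3 libraries against 3 can give.

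**Figure D3:**
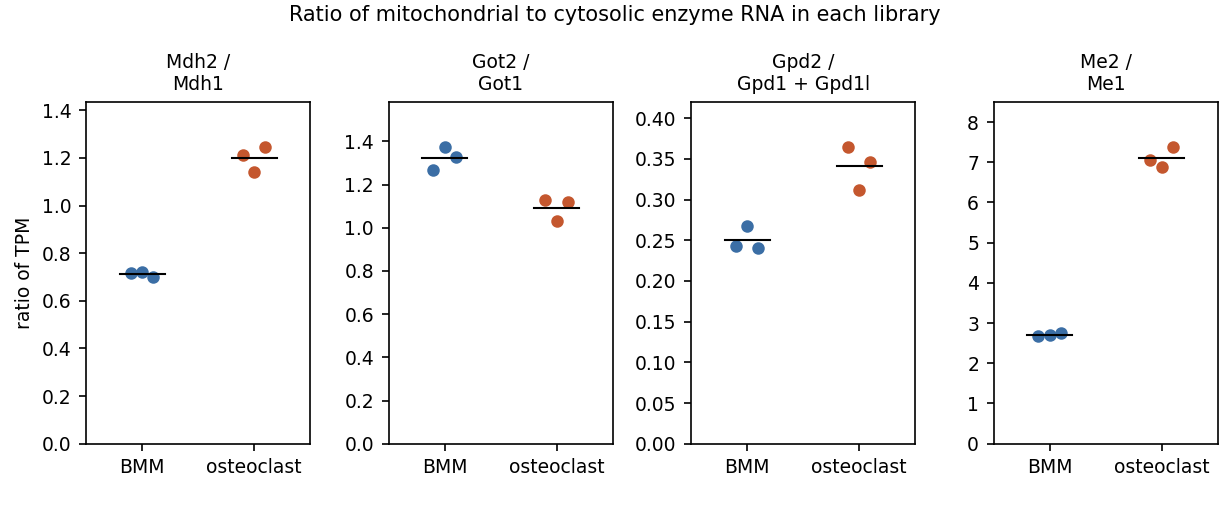
Ratio of TPM of the mitochondrial to the cytosolic enzyme in each library (points) with the group mean (bar), in a panel for each of 4 pairs on a linear axis from 0, with BMMs in blue and osteoclasts in orange. The ratio was higher in osteoclasts for Mdh2 over Mdh1 (mean 0.712 to 1.20), Gpd2 over Gpd1 and Gpd1l (0.251 to 0.341) and Me2 over Me1 (2.71 to 7.10), and lower for Got2 over Got1 (1.32 to 1.09).

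The order of the RNA levels, which TPM allows to be compared between genes, was Mdh1, Mdh2, Got2, Got1, Me2, Gpd1l, Me1, Gpd2 and Gpd1 in BMMs. No neighbours in that order had overlapping values. In osteoclasts the order was Mdh2, Mdh1, Got2, Got1, Me2, Gpd1l, Gpd2, Me1 and Gpd1, so that Mdh2 passed Mdh1 and Gpd2 passed Me1. Gpd2 and Me1 overlapped in osteoclasts and were not separated there. Mdh1 was 4.80 times Got2 in osteoclasts, the widest step in either order. Other members of these enzyme families were scarcely listed, with Me3, Mdh1b and Got1l1 together at no more than 0.103 TPM in any library.

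Lists of genes around the same metabolites were counted from the same fit, in which 45.3% of all genes tested were higher and 23.5% lower. Among dehydrogenases of glyceraldehyde phosphate and lactate, 4 of 4 tested were higher. One of them, Ldhd (chosen after its values were seen), averaged 0.647 TPM in BMMs and passed the filter only through osteoclasts, and with a filter at 5 TPM the count was 3 of 3. Gapdh, the glycolytic enzyme that makes NADH, averaged 1337 ± 20.1 TPM across BMMs and 1893 ± 122 TPM across osteoclasts (SD, n = 3 per group), and its log2 fold change was 0.50. Ldhb, a lactate dehydrogenase subunit, had the largest change of that list, from 26.8 ± 1.21 TPM to 273.7 ± 12.7 TPM (SD, n = 3 per group), and its log2 fold change was 3.30. Of 8 other tested genes for dehydrogenases that reduce ubiquinone, as GPD2 does, 8 were higher, with a median log2 fold change of 1.16. The 8 are genes and not separate enzymes, since Sdha, Sdhc and Sdhd (chosen after their values were seen) encode subunits of the same enzyme as Sdhb. Chdh, choline dehydrogenase, was under the filter and was listed at 0.486 to 0.798 TPM in BMMs and at no more than 0.0389 TPM in osteoclasts (chosen after its values were seen). The range of the 8 ran from 0.26 for Sqor, which oxidizes sulfide, to 1.49 for Sdhb, a subunit of succinate dehydrogenase, and Sqor did not pass after median-ratio scaling (0.05). Of 12 tested genes of a list around glycerol phosphate, 7 were higher, 3 were lower and 2 did not pass. Besides makers and users of glycerol phosphate, the list holds the Agpat genes, whose enzymes act on its acylated form. The 7 include Gpat3 and Gk5 (chosen after their values were seen), which averaged 0.619 and 0.985 TPM in BMMs and passed the filter only through osteoclasts. Agpat4, an acyltransferase of lipid synthesis, rose the most (log2 fold change 1.90), and Agpat2 and Agpat3 of the same family fell (-0.54 and -0.26). Gk, glycerol kinase, was lower at -0.32. It lost its call without BMM replicate 2, BMM replicate 3 or osteoclast replicate 3 (adjusted p from limma 0.071, 0.098 and 0.053). With no filter Gk also lost its call (adjusted p = 0.063 from limma).

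Of 7 tested genes around malate and citrate, 4 were higher, 1 was lower and 2 did not pass, and a count of 4 is near the 45.3% of all genes tested that were higher. Cs, citrate synthase, rose from 183 ± 0.331 TPM to 573 ± 43.3 TPM (SD, n = 3 per group), and its log2 fold change was 1.64, and Slc25a1, the mitochondrial citrate carrier, was the gene that fell (-0.50). Of 13 tested genes that use aspartate or glutamate, 10 were higher, 0 were lower and 3 did not pass. Asns, asparagine synthetase, which uses aspartate, averaged 16.7 ± 0.651 TPM across BMMs and 103.6 ± 6.15 TPM across osteoclasts (SD, n = 3 per group), and its log2 fold change was 2.56. Gpt, an alanine aminotransferase, had the smallest change of that list, at 0.02 (adjusted p = 0.86 from limma). By unadjusted p under 0.05, limma also gave 0 lower genes in that list.

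Genes listed as other makers of NADPH, the product of Me1, went both ways, with 5 of 12 higher, 4 lower and 3 not passing. The median log2 fold change was 0.02, and 5 of 12 is near the 45.3% of all genes tested that were higher. Among the 5, Mthfd1l (chosen after its values were seen) encodes an enzyme that does not make NADPH, and that of Mthfd2 mainly uses NAD. The 5 include Aldh1l2 (chosen after its values were seen), which averaged 0.179 TPM in BMMs and passed the filter only through osteoclasts, and with a filter at 5 TPM 4 were higher. G6pdx, the first enzyme of the cytosolic pentose phosphate pathway, fell from a mean of 414 ± 6.31 to 134 ± 14.8 TPM (SD, n = 3 per group), and its log2 fold change was -1.63 (SE 0.08, adjusted p = 6.8e-07 from limma). Idh1, Pgd, Nnt and Idh2 of this list were chosen after their values were seen. Idh1, the cytosolic isocitrate dehydrogenase, fell from a mean of 297 ± 11.8 to 119.7 ± 9.60 TPM, and Pgd, the next dehydrogenase of the pentose phosphate pathway, from 509.9 ± 9.08 TPM to 333 ± 12.6 TPM (SD, n = 3 per group). Nnt, which makes NADPH in mitochondria at the inner membrane, was also lower (-0.74). The genes that rose were led by Mthfd2, a mitochondrial folate dehydrogenase, at 27.7 ± 1.64 TPM across BMMs and 131 ± 2.78 TPM across osteoclasts (SD, n = 3 per group), and its log2 fold change was 2.21. They also held Idh2, the mitochondrial isocitrate dehydrogenase (1.31). As with Me1 and Me2, the cytosolic Idh1 was lower and the mitochondrial Idh2 higher. This division did not hold over the list. The cytosolic Mthfd1 was higher (1.25), the cytosolic Aldh1l1 was at 0.01 without passing, and the mitochondrial Nnt was lower. Mthfd1 and Aldh1l1 were also chosen after their values were seen.

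**Figure D4:**
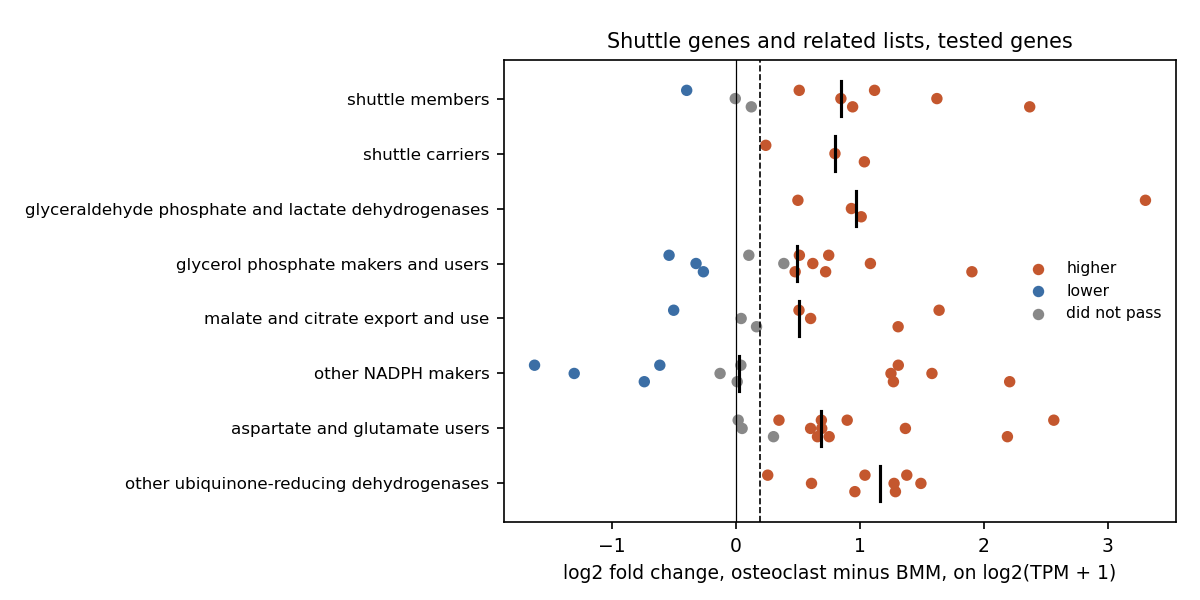
Log2 fold change of osteoclasts minus BMMs on log2(TPM + 1) for each tested gene (points, coloured by call) in the shuttle genes and 7 related lists, with a bar at each list's median; the solid line marks 0 and the dashed line the median of all genes tested (0.19). The shuttle genes have a median of 0.85 and the other ubiquinone-reducing dehydrogenases 1.16. The list labelled other NADPH makers spreads from -1.63 to 2.21 around a median of 0.02.

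Genes with the most similar profile were found by the Euclidean distance of log2(TPM + 1) over the 6 libraries after each gene was centred on its mean, which describes likeness in these libraries only. Nearest to Mdh1 were Phb2, a prohibitin of the inner mitochondrial membrane (distance 0.057), and Ndufv1, a complex I subunit (0.062). Near Mdh2 was Rnf19b, a ubiquitin ligase (0.082), and nearest to Me2 were Vdac2, a porin of the outer mitochondrial membrane (0.061), and Wdr61 (0.064). Got1 was nearest to Mid1ip1 and Cdk2ap2, and Ext2 was near Got2 (0.045). Me1 was nearest to Kif4, a kinesin of dividing cells, which averaged 12.4 ± 0.0898 TPM across BMMs and 9.38 ± 1.01 TPM across osteoclasts (SD, n = 3 per group), and to Arl13b. Gpd2 was nearest to Hivep2 and Smad3, Gpd1 to Fgd3 and Mroh1, and Gpd1l to Thtpa and Smg8.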

How the data were processed

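Total RNA of 6 libraries was sequenced by the study as paired reads of 150 bases. Per the methods and the submitters' processing notes, the tools were bcl2fastq 2.17, then Trimmomatic 0.36 for trimming, then STAR 2.5.2b for alignment to mm10 (GRCm38), after which hits were counted per gene. The authors deposited TPM per library, made from these hits in a way not given in the sources used here, and likewise for the counting tool, the use of strand and the handling of multiply matching reads. The total was 1000000 per library, so depth is unknown and no count model was run.

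The TPM values were used as deposited. Members and lists were chosen with earlier results of these data known. Genes whose mean reached 1 TPM were tested with limma 3.58.1 in R 4.3.3 on log2(TPM + 1), with the intensity trend, two-sided, with Benjamini-Hochberg adjustment over the 12325 genes tested. The fit was tested on simulated data. Coordinates came from GENCODE vM21, which 48970 of 49315 identifiers matched, and promoters from RefSeq (GRCm38.p6). Protein comparison, which had been planned, was not made. Besides the 9 members, genes were named by rule: the carriers and other family members, the largest and smallest change of each pathway list with up to 3 exceptions to its main direction, the most abundant marker of each list, and the 2 nearest genes of each member, of which some are not reported here. Genes outside it are marked in the text as chosen after their values were seen; markers at 0 and genes that share sequence with a member are named for their values too. Alternatives were pseudocounts of 0.1 and 0.5 TPM, a filter at 5 TPM or none, median-ratio scaling, quantile normalization, rescaling with the 20 most abundant and the mitochondrially encoded genes removed, a fit with no trend, a replicate block, and each library left out. Software was Python 3.11.15 with SciPy 1.17.1, NumPy 2.4.6, pandas 2.3.3 and, for plots, matplotlib 3.10.9.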

Additional observations from a re-analysis of the deposited data

How the results depend on the processing

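Under the 15 alternatives of the fit, 6 of the 9 shuttle genes were called higher and 1 lower, except that 7 were higher without osteoclast replicate 2, where Gpd1l passed. The log2 fold changes of the 7 called genes kept their direction and call in each alternative, within 2.16 to 2.39 for Mdh2, 1.41 to 1.65 for Mdh1, 0.90 to 1.14 for Got1, 0.63 to 0.88 for Got2, 0.73 to 0.99 for Me2, 0.31 to 0.63 for Gpd2 and -0.60 to -0.33 for Me1. Gpd1 (not tested at the 5 TPM filter) lay between -0.093 and 0.094 over the left-out libraries. Without a called change, Gpd1l turned to -0.083 after median-ratio scaling, -0.073 after quantile normalization and -0.045 after rescaling without the most abundant genes. Gpd1 was at -0.17, -0.19 and -0.15 in these settings, also uncalled. In that order of settings, other uncalled genes also changed sign, with Gpt at -0.17, -0.18 and -0.14, Mroh1 at -0.19, -0.18 and -0.16, Thtpa at -0.060, -0.073 and -0.026, and Smg8 at -0.10, -0.096 and -0.064. Mylpf was at 0.0094 and 0.0021 with pseudocounts of 0.1 and 0.5 TPM. Over the left-out libraries these ranged from -0.022 to 0.042 (Gpt), -0.095 to 0.13 (Mroh1), 0.060 to 0.16 (Smg8) and -0.19 to 0.21 (Mylpf), and Fgd3 from -0.11 to 0.075. The 4 ratios of partner enzymes kept their direction with pseudocounts of 0.1 and 0.5 TPM or none. They also kept it with each library left out, which could not come out otherwise, since the groups did not overlap. The replicate block could not change it either, because it leaves the mean difference as it was. Deviations of equally numbered libraries correlated at -0.05, 0.00 and -0.07, and those of unequally numbered libraries at -0.07 to 0.10. With 3 libraries per group, this cannot decide whether equally numbered libraries share an animal or preparation. With the replicate number as a block, 6 members were higher and 1 lower, and 5502 and 2821 of all genes tested were higher and lower. The ratios then differed by 0.75, -0.27, 0.40 and 1.34, by construction the same as without the block. Of all genes, quantile normalization called 4090 higher and 4259 lower, and rescaling without the most abundant genes 4480 and 3922. With no filter, 1 ubiquinone-reducing dehydrogenase, Chdh (chosen after its values were seen), was called lower. Depth is unknown and may limit Gpd1, at under 5 TPM in each library.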

Other observations

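The subunits of lactate dehydrogenase, which competes with the shuttles for cytosolic NADH, differed in their proportion, which was not tested. Ldhb made up 5.08%, 5.07% and 5.45% of the TPM of Ldha and Ldhb in the BMM replicates and 21.3%, 21.7% and 22.2% in the osteoclast replicates, while Ldha itself (chosen after its values were seen) rose by 1.01 on the log2 scale.

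Bcat1, a cytosolic branched-chain aminotransferase chosen after its values were seen, was below the filter on low values and was listed at 0.0151 to 0.0936 TPM in BMMs and 0.993 to 1.17 TPM in osteoclasts.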
